A study of Sus scrofa with 8 samples.

Results

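The erythroid and haemoglobin genes described here are 4 genes of red blood cells: HBE1, HBA, RHCE and SELENBP1. In pig whole blood all but HBA gave a usable value. The 4 genes were found by gene symbol or by a globin chain named in the probe description, which gave 5 probes of the 43603 on the array. RHCE stands in the files under its older symbol RH and was recognised through the RefSeq record that its probe names. A sixth probe, described in the files as similar to epsilon globin, falls outside that rule. It was added after its values were seen, because it shares a stretch of 53 bases with an HBE1 probe.

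Blood came from 8 female Clawn miniature pigs, a small breed that the labels call conventional, aged 8 to 9 months. Of these, 4 were fed SDW, in which dry feed, water and the liquid after which the diet is named (shochu distilled water) were combined in equal parts by weight, and 4 were fed standard dry feed alone (control). Each animal gave 1 array of 60-base probes, read in 1 colour. Feeding had lasted 12 weeks according to the design text, but the description of each sample names 14 weeks for replicate 1, 15 for replicate 2, 16 for replicate 3 and 17 for replicate 4. The comparison addresses whether SDW feeding changes the physiology of the animals as read from blood RNA.

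Each level below is the log2 of a spot's intensity, from which the array's own 75th percentile has been subtracted on the log2 scale. Between 35.2% and 43.5% of the probes of an array were well above background, no probe was saturated, and the 17352 probes that reached that mark on 4 or more of the 8 arrays were tested with limma. No probe passed an adjusted p of 0.05 (0.0% of those tested), and 251 had an unadjusted p under 0.05 (1.45%), of which 161 were higher (0.928%) and 90 lower (0.519%) in SDW animals. The arrays lay on 3 slides that each held both diets: slide 1 held SDW 2, SDW 3 and control 3, slide 2 held SDW 1, control 2 and control 4, and slide 3, scanned on another day, held SDW 4 and control 1. The number of arrays limits the precision of every value. The level of one probe cannot be set against that of another, since probes differ in how well they bind.

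Haemoglobin, the oxygen carrier of red cells, joins alpha-like with beta-like globin chains, each holding a haem group. Mammalian red cells lose their nucleus as they mature, and the RNA of red cells in blood lies mostly in reticulocytes, the youngest circulating red cells, where globin transcripts make up much of it. The beta-like chains are switched in development, and in humans HBE1 encodes the epsilon chain of the embryo. In whole blood, fewer reticulocytes and less RNA in each of them cannot be told apart.

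Of the globins of whole blood, HBE1 was measured by 2 probes that carry its name, and HBA, the alpha chain, has 1 probe that was not well above background on any array. HBB, which encodes the adult beta chain, and HBZ, HBM and HBQ1, further members of the alpha-like family, had no probe under their symbol or RefSeq record. HBD and HBG1, symbols that are not listed among the pig RefSeq genes, had no probe under their symbol. These 6 globins are not analysed here. The symbol HBA is not listed among those genes either, and its probe was found through its description alone. The names of the HBE1 probes are those of the files and the RefSeq record, and the probes were not matched to any globin transcript. Whether they also bind RNA of a neighbouring beta-like globin, such as HBB, was not tested, and every HBE1 value below is read with that limit. In the RefSeq gene table of the assembly Sscrofa11.1, HBE1 lies in a run of neighbours with HBB, separated from it by LOC100515788 and LOC100621288. Of 12 erythroid markers, 5 had a named probe (HBA, HBE1, RHCE, SELENBP1 and KLF1) and 4 of these were tested. HBB, ALAS2, SLC4A1, AHSP, RHAG and GATA1 were among those with none, which leaves the red cell content of the samples read from few genes.

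The probes themselves are shown because they decide what is measured. Capitals mark AATAAA, the letters of the polyadenylation signal near the 3′ end of many transcripts, and probes that hold it are printed as the 30 bases around it. The first HBE1 probe and the HBA probe are printed whole.
HBE1, probe A_72_P223877: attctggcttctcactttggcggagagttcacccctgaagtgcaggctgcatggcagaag
HBE1, probe A_72_P203587: cagcttctgtttAATAAAgtacattctgtt
epsilon globin EST, probe A_72_P104806: cagcttctgtttAATAAAgtacattctgtt
HBA, probe A_72_P019731: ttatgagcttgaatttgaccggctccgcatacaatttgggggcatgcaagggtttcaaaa
RHCE, probe A_72_P078061: agacagattgatgtgagaAATAAAagacta
SELENBP1, probe A_72_P121661: atttcaccaagaAATAAAccggtgaacctc

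The letters AATAAA occur on the probe strand in 12.1% of all 43603 probes and as the reverse complement in 4.63%. Probe A_72_P203587 was designed on an EST (a single-read transcript fragment) and ends in a run of 6 A. The 30 bases printed are identical in it and in the epsilon globin EST probe, so these probes read the same stretch and are not independent measurements. Probe A_72_P223877, on the RefSeq transcript, shares no run longer than 6 bases with either and has a GC content of 55.0%, against 36.7% and 43.3% for the EST probes. The chromosomes listed for the genes in the RefSeq table are 9 for HBE1, 6 for RHCE and 4 for SELENBP1. The files give no mapped position for these probes, so coordinates are not reported.

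HBE1, the beta-like globin, gave a bright signal in every animal and a lower mean in SDW animals that lay well within the spread between animals. The RefSeq probe had levels of 6.53, 6.68, 7.84 and 5.71 in SDW 1 to 4, against 5.91, 7.24, 7.62 and 7.72 in control 1 to 4. SDW 3 was the highest of all 8 animals and SDW 4 the lowest, so the diets overlapped. Spot intensity before scaling ranged from 2088 to 9220 in SDW animals and from 3323 to 12327 in control animals. On that unscaled measure control 4, not SDW 3, was the highest. The level averaged 6.69 ± 0.88 in SDW animals and 7.12 ± 0.83 in control animals (SD, n = 4 each). The log2 difference was -0.43 (SE 0.51, 95% interval -1.57 to 0.70), and limma gave an adjusted p of 1.00 over all probes tested.

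The HBE1 EST probe gave the same order of extremes. Its levels were 7.80, 7.54, 8.72 and 6.98 in SDW 1 to 4, against 7.19, 8.10, 8.48 and 8.40 in control 1 to 4. It averaged 7.76 ± 0.72 in SDW animals and 8.04 ± 0.59 in control animals (SD, n = 4 each), a log2 difference of -0.28 (SE 0.41, 95% interval -1.20 to 0.63). The epsilon globin EST probe had levels of 8.13, 7.80, 9.06 and 7.27 in SDW 1 to 4, against 7.61, 8.43, 8.78 and 8.76 in control 1 to 4, with a log2 difference of -0.33 (SE 0.41). Over the 8 arrays the levels of the RefSeq probe correlated with those of the EST probes at 0.98 and 0.97, and the EST probes with each other at 1.00 after rounding. These correlations share the arrays and their scaling, and are given as a description of how closely the 3 probes move together.

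**Figure D1:**
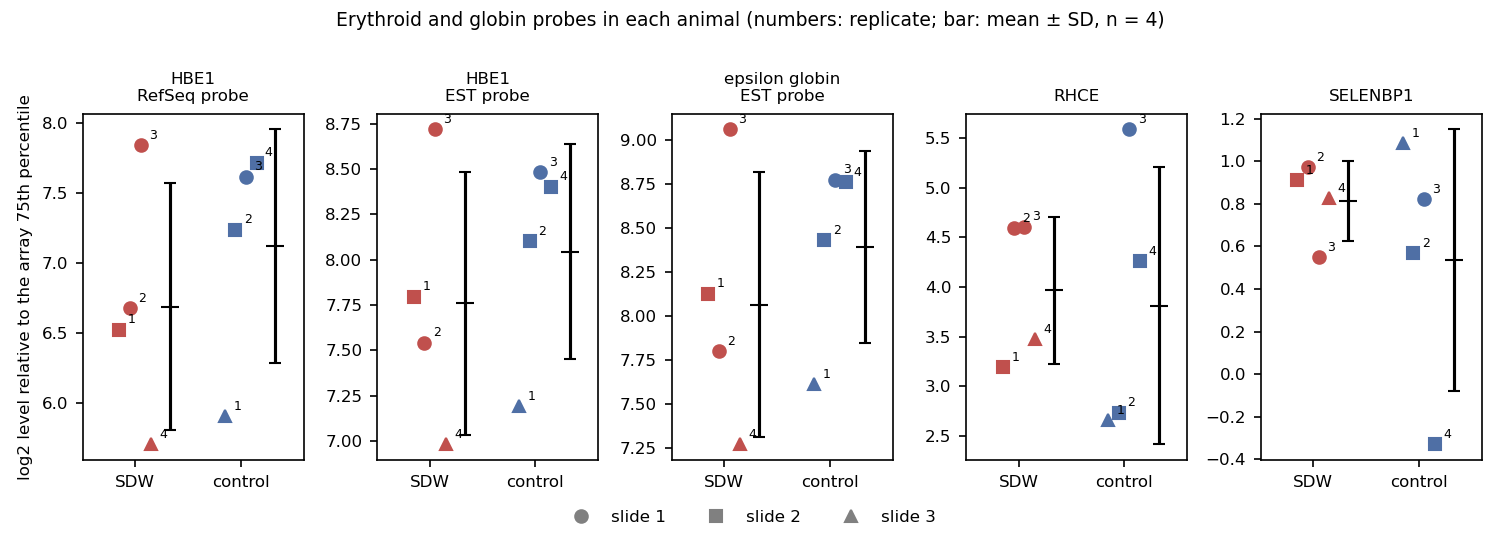
Log2 level relative to the array's 75th percentile for the 5 tested probes, with SDW animals (red) left of control animals (blue) in each panel. Numbers beside points are replicates, shapes are slides, and bars are mean ± SD (n = 4); SDW and control points overlap in every panel, and the slide 3 arrays (triangles) are the lowest for all 3 globin probes.

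Slide took up more of the spread of HBE1 than diet did. Of the variance of the RefSeq probe over the 8 arrays, 68.6% lay between slides and 7.8% between diets. The medians over all tested probes were 44.7% and 5.0%. Shares of slide and diet are not like measures, since there were more slides than diets and not every slide held the diets in equal numbers. Within slides 1, 2 and 3 the log2 differences of the RefSeq probe, SDW minus control, were -0.36, -0.95 and -0.20. Those of the HBE1 EST probe were -0.35, -0.46 and -0.21. HBE1 was thus lower in SDW animals on each slide, as were 12.7% of all tested probes. With slide as a block the difference of the RefSeq probe was -0.53 (SE 0.31, limma adjusted p = 0.763) and that of the EST probe -0.35 (SE 0.29, limma adjusted p = 0.814). The size rested on single animals: leaving out control 1 gave -0.84 for the RefSeq probe, leaving out SDW 3 gave -0.82, and leaving out SDW 4 gave -0.10.

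**Figure D2:**
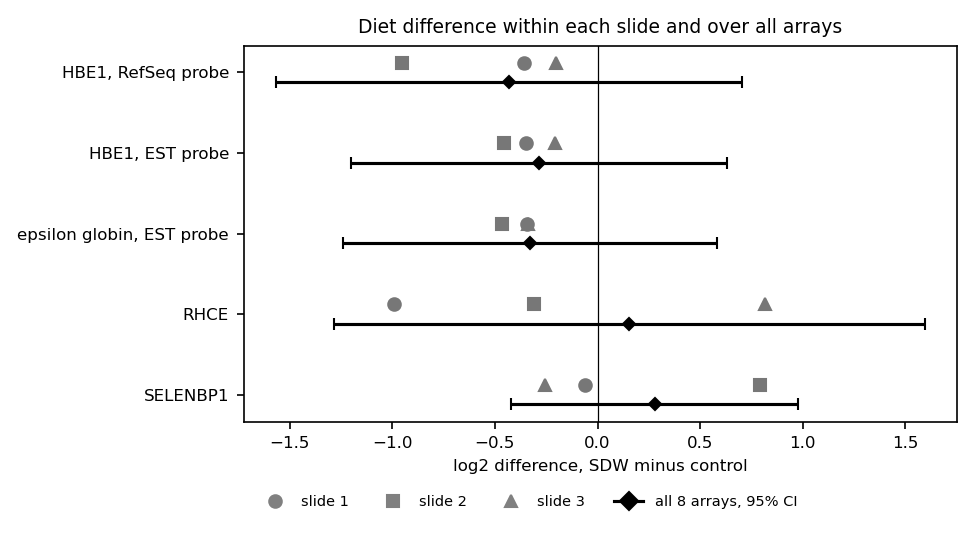
Log2 difference, SDW minus control, for each tested globin and erythroid probe (rows): grey symbols are the differences within slides 1, 2 and 3, and black diamonds with bars are the limma difference over all 8 arrays with its 95% interval. All 3 globin probes lie below 0 on each slide, RHCE and SELENBP1 have slides on both sides of 0, and every interval spans 0.

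HBA, the alpha globin gene, has no usable value. Its probe had spot intensities of 2.13, 2.15, 2.13 and 2.23 in SDW 1 to 4, against 4.05, 2.39, 2.17 and 2.23 in control 1 to 4. All 8 are substitute values that the scanner software writes near background. The dimmest probes well above background had intensities of 9.02 to 9.98 on the SDW arrays and 9.42 to 16.4 on the control arrays. As background, alpha globin is among the most abundant transcripts of whole blood in mammals, and the probe gives no level for it. Whether the letters of the probe match a pig alpha globin transcript, and on which strand, was not tested, since no transcript sequence was used here. No fold is given.

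RHCE, a protein of the red cell membrane that in humans carries Rh blood group antigens, varied widely between animals of the same diet. Its levels were 3.19, 4.59, 4.61 and 3.48 in SDW 1 to 4, against 2.66, 2.73, 5.59 and 4.26 in control 1 to 4. Control animals held both the lowest and the highest value. The mean was 3.97 ± 0.74 in SDW animals and 3.81 ± 1.40 in control animals (SD, n = 4 each), with a log2 difference of 0.15 (SE 0.64, 95% interval -1.28 to 1.59) and a limma adjusted p of 1.00.

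The spread of RHCE over all 8 arrays was an SD of 1.04, larger than that of 94.6% of tested probes. The lowest and highest animals lay 2.93 apart on the log2 scale. Of its variance, 70.6% lay between slides and 0.6% between diets. Within slides 1, 2 and 3 the log2 differences were -0.99, -0.31 and 0.82, and with slide as a block the difference was -0.25 (SE 0.40, limma adjusted p = 0.919). The direction depended on single animals: it was 0.75 without control 3, but -0.05 without SDW 2, -0.06 without SDW 3, -0.23 without control 1 and -0.20 without control 2.

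SELENBP1, a selenium-binding protein that in humans acts as a methanethiol oxidase and is abundant in red cells, had levels near the 75th percentile of the array. Its levels were 0.91, 0.97, 0.55 and 0.83 in SDW 1 to 4, against 1.08, 0.57, 0.82 and -0.33 in control 1 to 4. Apart from control 4, which was the lowest, the animals of both diets lay between 0.55 and 1.08. It averaged 0.81 ± 0.19 in SDW animals and 0.54 ± 0.61 in control animals (SD, n = 4 each). The log2 difference was 0.28 (SE 0.31, 95% interval -0.42 to 0.98, limma adjusted p = 1.00). Without control 4 it was -0.01. Within slides 1, 2 and 3 it was -0.06, 0.79 and -0.26. Of the variance of SELENBP1, 32.0% lay between slides and 11.2% between diets, against medians of 44.7% and 5.0% over all tested probes.

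The levels of the members were compared across the 8 animals, with HBE1 read from its EST probe. HBE1 and RHCE correlated at Pearson r = 0.57 (exact permutation p = 0.142, two-sided, n = 8; adjusted over the 3 pairs 0.213) and Spearman rho = 0.62 (exact permutation p = 0.115, adjusted 0.172). Without SDW 3 and SDW 4, the animals farthest from the median HBE1 level, r was 0.56, and with slide means taken away it was 0.32. HBE1 and SELENBP1 ran in opposite directions, with r = -0.56 (exact permutation p = 0.133, adjusted 0.213) and rho = -0.74 (exact permutation p = 0.0458, adjusted 0.137). Their r was -0.66 without SDW 3 and SDW 4 and -0.61 with slide means taken away. RHCE and SELENBP1 had r = -0.19 (exact permutation p = 0.693, adjusted 0.693) and rho = -0.40 (exact permutation p = 0.327, adjusted 0.327). Their r was -0.21 without control 1 and control 3 and -0.63 with slide means taken away. No pair passed an adjusted p of 0.05.

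Beyond the members, 6 lists of red cell genes held 122 genes, of which 29 were tested and 12 had a probe that was too dim to test. Of the 29, 13 were higher and 16 lower in SDW animals, none had an unadjusted p under 0.05 (1.45% of all tested probes did), and in none did the diets separate (0.985% of all tested probes did). The median log2 difference of the 29 genes was -0.09, against 0.02 for all tested probes, and single genes ran between -0.69 and 0.57. That median was 0.05 without control 3, 0.05 without SDW 1 and 0.01 without SDW 4, but -0.20 without control 2 and -0.25 with slide as a fixed block. The median SD of the 29 genes over the 8 arrays was 0.68, against 0.42 for all tested probes. Lists of other blood cells gave 0.89 for neutrophil, 0.80 for monocyte, 0.72 for eosinophil and basophil, 0.55 for T cell and 0.43 for platelet markers, so a wide spread was not particular to the erythroid genes.

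**Figure D3:**
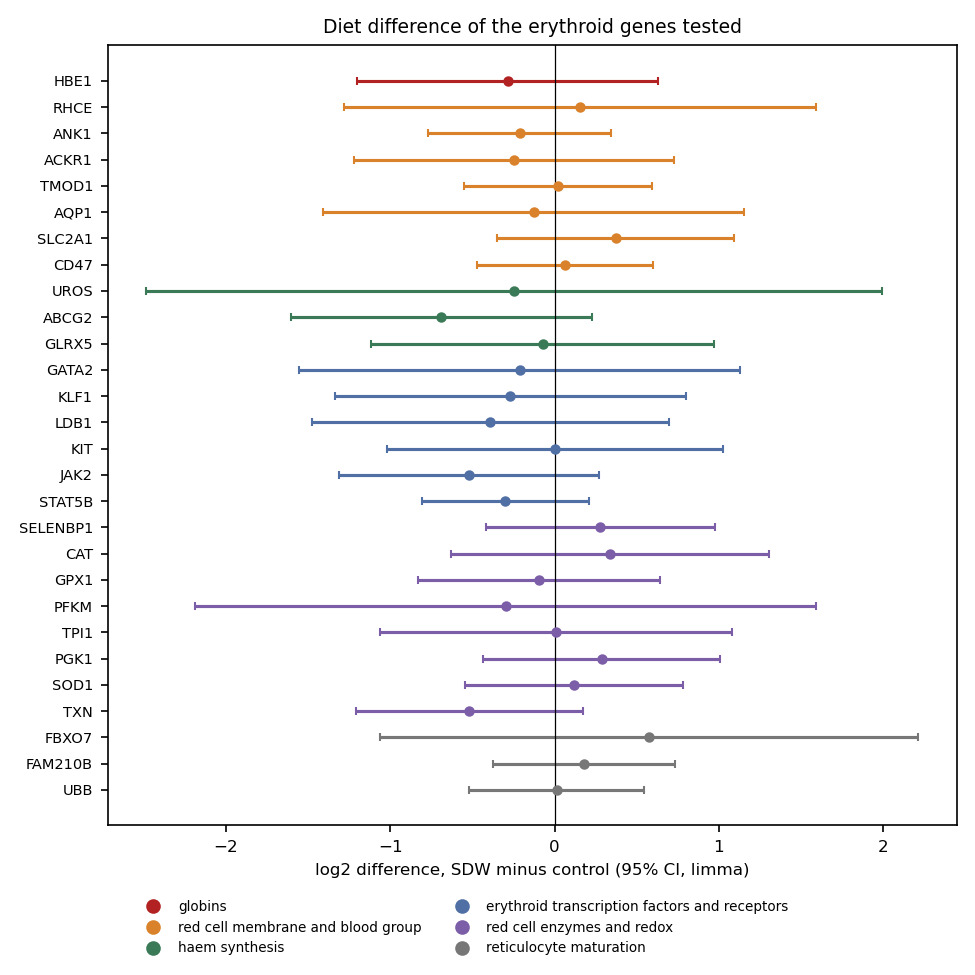
Log2 difference, SDW minus control, of 28 of the 29 tested erythroid genes (rows, coloured by list), with 95% intervals from limma on all 8 arrays. Every interval spans 0, and ABCG2 at -0.69 and FBXO7 at 0.57 are the ends of the range.

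Among 29 membrane and blood group genes, 7 were tested, 4 higher and 3 lower, with a median difference of 0.02. AQP1, the water channel of the red cell membrane, had levels of 7.12, 7.86, 9.04 and 7.28 in SDW 1 to 4, against 6.69, 7.58, 9.24 and 8.29 in control 1 to 4. SDW 3 and control 3, both on slide 1, were the highest animals of their diets, and the difference was -0.13 (SE 0.57), with -0.32 from its second probe. ANK1, which ties the spectrin skeleton to the membrane, differed by -0.21 (SE 0.25). TMOD1, which caps actin filaments, differed by 0.02 (SE 0.26), and CD47, which protects cells from being engulfed, by 0.06 (SE 0.24). SLC2A1, the glucose transporter GLUT1, differed by 0.37 (SE 0.32). ACKR1, the Duffy blood group receptor, differed by -0.25 (SE 0.44), and was well above background in only 3 SDW and 2 control animals.

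Of 17 haem synthesis genes, 4 were tested. All 4 had a lower mean in SDW animals (median difference -0.21), and none passed the test. ABCG2, a transporter that exports porphyrins, averaged 2.85 ± 0.77 in SDW animals and 3.54 ± 0.53 in control animals (SD, n = 4 each), a difference of -0.69 (SE 0.41). Its other probes gave -0.41 and 0.37, so they did not share a direction. UROS, which closes the ring, differed by -0.25 (SE 1.00) and was well above background in only 2 animals of each diet. GLRX5, needed for iron-sulphur clusters, differed by -0.07 (SE 0.47) and was well above background in 2 SDW and 3 control animals. ALAS2, the rate-limiting first enzyme in red cells, and FECH, which inserts the iron, had no tested probe.

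Of 19 erythroid transcription factors and receptors, 6 were tested, 1 higher and 5 lower, with a median of -0.28. KIT, the receptor for stem cell factor on progenitors, averaged 4.35 ± 0.78 in SDW animals and 4.35 ± 0.74 in control animals (SD, n = 4 each). LDB1, which helps to bring the globin enhancer to its genes, differed by -0.39 (SE 0.49), GATA2 by -0.21 (SE 0.60) and STAT5B, which acts below the erythropoietin receptor, by -0.30 (SE 0.23). KLF1, the activator of adult beta globin and an erythroid marker, differed by -0.27 (SE 0.48), with levels from -0.45 to 1.45 in SDW animals and -0.05 to 1.74 in control animals. Probes for EPOR, the erythropoietin receptor, and TFRC, the transferrin receptor, were too dim to test.

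Among 23 red cell enzymes and redox genes, 8 were tested, 5 higher and 3 lower, with a median of 0.06. GPX1, which removes peroxides, averaged 9.45 ± 0.44 in SDW animals and 9.54 ± 0.53 in control animals (SD, n = 4 each). CAT, which encodes catalase, averaged 4.28 ± 0.35 in SDW animals and 3.94 ± 0.94 in control animals (SD, n = 4 each), a difference of 0.34 (SE 0.43). Thioredoxin, TXN, differed by -0.52 (SE 0.31) and gave -0.71 from its second probe. It was lower in SDW animals on each slide, as were 12.7% of all tested probes, ABCG2 and GATA2 among them. SOD1, a superoxide dismutase, differed by 0.12 (SE 0.30) and was higher on each slide. The glycolytic enzymes PGK1, TPI1 and PFKM differed by 0.29 (SE 0.32), 0.01 (SE 0.48) and -0.30 (SE 0.85), and PFKM was well above background in only 2 SDW animals. Of 20 genes tied to reticulocyte maturation, 3 were tested and all were higher, by 0.57 (SE 0.73) for FBXO7, part of a ubiquitin ligase, 0.18 (SE 0.25) for FAM210B and 0.01 (SE 0.24) for UBB, which encodes ubiquitin.

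Red cell genes differed in how closely they followed the members over the 8 arrays. RHCE had 7 of the 28 other tested erythroid genes at a Pearson correlation of 0.7 or more, where 8.09% of the 1100 named genes reached it. Among them were GPX1 at 0.92, CAT at 0.91, AQP1 at 0.89, LDB1 at 0.80, TMOD1 at 0.75 and UROS at 0.71. Of the 28 genes only 13 correlated positively with RHCE, and the median was -0.01, against 0.11 over the named genes. GLRX5 at -0.91 and CD47 at -0.75 ran opposite to RHCE. With slide means taken away the count at 0.7 or more was 5 of 28, against 4.73% of named genes. HBE1 had 1 such gene, AQP1 at 0.84, against 8.73% of named genes, and SELENBP1 had 1, FAM210B at 0.77, against 8.64%. With slide means taken away HBE1 had 5, against 18.4% of named genes, and SELENBP1 had 4, against 21.0%. The correlations are over animals of both diets that share arrays, slides and scaling, and carry no p.

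**Figure D4:**
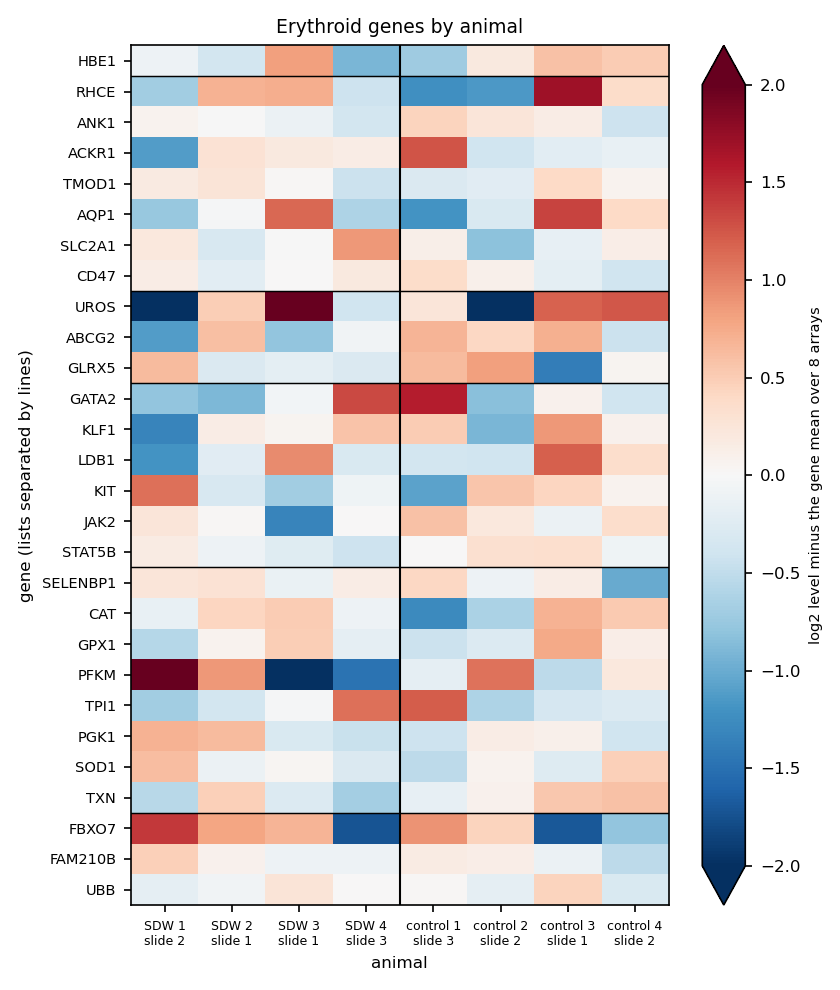
Log2 level of 28 of the 29 tested erythroid genes (rows, lists separated by lines) minus its mean over the 8 arrays, by animal (columns, SDW left of control, slide beneath); red is above and blue below the gene's mean, with the colour scale ending at 2.0 in either direction. Control 3 is above the mean for RHCE and for AQP1, LDB1, CAT and GPX1, which correlate with RHCE, and control 1 is below it. The reverse holds for GLRX5, FBXO7, CD47 and TPI1, among others, so neither animal is high or low for the erythroid genes as a whole.

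The 5 genes most like each member by Pearson correlation of level were taken from 1100 named genes. For HBE1 they included CEND1 and CYSLTR1 at r = 0.95, TPT1 at 0.94 and HTR4 at 0.93 over the 8 arrays. For RHCE they included ARG1 at 0.94 and CYB5A and ATP5I at 0.93. For SELENBP1 they were MAGED1 at 0.97, GALNS at 0.96, EPRS at 0.95, APP at 0.94 and MRPL32 at 0.93. With slide means taken away the order changed. SLC2A10, FOXO6, RBM38, GRK7 and BLOC1S3 then led for HBE1 (0.97 to 0.99). Before that step their r with HBE1 was -0.61, 0.74, 0.67, -0.51 and 0.03, so they did not all follow it over the 8 arrays. For RHCE, SOD2, CYGB, SLC16A1 and AHCY were among the leaders (0.90 to 0.93), with 0.42, 0.36, 0.36 and 0.69 before it. For SELENBP1, ICAM1, SLC8A1, TMBIM6 and SLC7A1 were among them (0.98 to 0.99), with 0.59, 0.18, 0.84 and 0.56 before it. The leading values were picked as the highest of 1100 over 8 arrays, so they are high by selection and carry no p.

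Markers of the other blood cells were read beside these values, since levels in whole blood are relative to all RNA of the sample. All 5 tested neutrophil markers were lower in SDW animals (median -0.76) and all 4 eosinophil and basophil markers higher (median 0.68), none past the test after adjustment. GNLY, the only cytotoxic marker tested, differed by -0.71. Of the monocyte markers 3 of 5 were higher (median 0.05), of the T cell markers 3 of 6 (median -0.09) and of the platelet markers 4 of 5 (median 0.10). Their part in the erythroid values was not tested.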

How the data were processed

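The deposited scanner files hold spot intensity on a linear scale. They were written by Agilent Feature Extraction, with 10.1.1.1 as the version in the file headers and 9.5.3.1 in the submitters' processing notes. Background was subtracted and each array detrended, per the file headers, and spots near background got a substitute value. No scaling between arrays was applied. RNA was taken from PAXgene tubes and 0.5 µg was labelled with Cy3, per the labels' protocols. The authors also deposited a value table of intensity on a linear scale, by a method not stated in the sources used here. In it, 7 of 8 columns match a scanner file from the right diet but another replicate number (Spearman correlation 1.00 with the match, 0.857 to 0.906 with the labelled replicate). Replicate names here follow the scanner files.

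Control and outlier spots were left out (3 to 23 outlier spots per array), spots of 1 probe were averaged, and the log2 of each array's 75th percentile (39.9 to 73.1 on the linear scale) was subtracted from its log2 intensities. Of 43603 probes, 17352 were kept and tested between diets with limma 3.58.1 in R 4.3.3 (lmFit, eBayes, two-sided, Benjamini-Hochberg, no covariate), on code tested on simulated data. Correlations between members were tested by exact permutation. Of all probes, 2988 were named through the files and the RefSeq gene table and 40615 were not; 1682 named probes of 1101 genes were tested. A gene was read from its brightest kept probe. Each array is a separate pig according to its label.

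The text names all member probes, every tested gene of the membrane, haem synthesis and enzyme lists, the 4 brightest genes of the other lists and the 5 genes most like each member. Some genes set by this rule are not reported here. KLF1 and JAK2 lie outside this rule and were picked with their values known. Members, lists and rule were chosen with earlier results of these data known. Alternatives were other background corrections, scalings and filters, the authors' table, slide or replicate number as a block, array weights, a variance trend, and leaving out each array or slide 3.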

Additional observations from a re-analysis of the deposited data

Results flagged for a closer look

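In 4 of the 62 sets of 4 animals checked (the member probes and tested erythroid genes, in each diet), 1 array lay apart from the other 3 by Dixon's test at the 95% level, a result that chance gives in about 1 in 20 sets. ACKR1 had a level of -2.94 in SDW 1, against -1.67 to -1.52 in the other SDW animals, and -0.57 in control 1, against -2.21 to -1.97 in the other control animals. GLRX5 was at -1.29 in SDW 1, against -2.22 to -2.12 in the other SDW animals. Both genes were below the background limit on some arrays. JAK2, a kinase that relays erythropoietin signalling, was at -1.36 in SDW 3, against -0.03 to 0.20 in the other SDW animals, and was well above background on all 8 arrays. None of the member probes had such an array.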

How the results depend on the processing

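No probe passed an adjusted p of 0.05 (limma) under 20 of the 21 alternatives. Without slide 3 there was 1 call, an unnamed probe that is no member (A_72_P092736, log2 difference 5.21, adjusted p = 2.78e-05, against 2.80 on all arrays). Probes at an unadjusted p under 0.05 numbered 251, against 162 with normexp and the 75th percentile, 823 with no filter, 165 when well above background on all 8 arrays was required, 1143 with slide as a fixed block, 632 with slide as a random block and 542 without slide 3. Leaving out 1 array gave 179 to 517. HBE1 kept its direction in all 21 alternatives. It lay between -0.84 and -0.10 for the RefSeq probe and between -0.60 and -0.03 for the EST probe. These are also the extremes of leaving out 1 array. The filters, the replicate block and the variance trend leave the difference as it is by construction, so they are no check of direction. RHCE turned to -0.25 with slide as a fixed block, -0.085 with slide as a random block and -0.065 without slide 3, and ran from -0.23 to 0.75 when 1 array was left out. SELENBP1 ran from -0.0095 to 0.46 when 1 array was left out. The smallest adjusted p of any member under any alternative was 0.763. Replicate numbers were checked for pairing: deviations of same-numbered animals correlated at -0.17, 0.11, 0.33 and -0.38, and 2 of 8 animals correlated best with their own number. Only the replicate 3 animals, at 0.33, shared a slide, so slide enters this check and it cannot decide on pairing. Same-numbered animals also share the feeding time named in their descriptions. The labels state no pairing, and the main fit used none. With the replicate block 239 probes had an unadjusted p under 0.05 and none passed the adjusted threshold. The differences of HBE1 (-0.43 and -0.28), RHCE (0.15) and SELENBP1 (0.28) were those of the fit without it. This was fixed by the design, since each replicate number holds 1 animal of each diet, and only the SE and p could change. The cause of the changes was not tested. Signal over background limits HBA, which had no value, and UROS, GLRX5, ACKR1 and PFKM.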

Other observations

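Genes that clear haemoglobin and haem also ran without a difference past the test. HMOX1, which breaks down haem, averaged 3.15 ± 0.55 in SDW animals and 2.58 ± 0.82 in control animals (SD, n = 4 each), a log2 difference of 0.57 (SE 0.43). HMOX2, its constitutive relative, differed by -0.27 (SE 0.55), CD163, the scavenger receptor for haptoglobin bound to haemoglobin, by 0.10 (SE 0.48) and HP, haptoglobin itself, by -0.40 (SE 0.66). Of the globins of other tissues, cytoglobin (CYGB) averaged -0.57 ± 1.44 in SDW animals and -0.08 ± 1.52 in control animals, and neuroglobin (NGB) 0.36 ± 0.60 in SDW animals and 0.54 ± 0.36 in control animals (SD, n = 4 each).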
